A study of Mus musculus with 2 samples.

Results

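The Ly6 surface proteins described here are the products of 6 genes, Ly6a, Ly6e, Ly6c1, Ly6c2, Ly6d and Ly6g, out of 32285 features counted in single spleen cells. The genes were selected on symbol, with their molecule counts and shares of positive cells in these same libraries already known, so the levels and ratios below are a description and none is a test. All 6 symbols occurred in both count tables. Their unique molecular identifiers (UMIs, each standing for 1 captured RNA molecule) were summed per library and cell class, and the share of cells with at least 1 UMI was taken beside each sum.

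Libraries were made from the spleen of an Mefv M694I knock-in mouse and from that of an age-matched wild-type mouse, both kept free of specific pathogens. The titles name a single mouse per library, and the strain, sex and age of the mice and whether the change sat on 1 or both alleles are not given in the labels used here. Mefv encodes pyrin, the sensor of an inflammasome, and changes in its human counterpart cause familial Mediterranean fever. The organ was dissociated by mechanical means, red blood cells were removed by lysis, and droplet libraries that count the 3′ end of each transcript were made. With 1 library per genotype, differences between the genotypes and between the mice or preparations cannot be told apart, and no p-value is given.

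Ly6 proteins are small proteins with a compact disulfide-bonded fold, most of them held in the outer membrane by a lipid anchor, and their genes lie in clusters. Immunologists know them chiefly as sorting markers. Ly6a is Sca-1, a marker of blood stem cells that is also present on activated lymphocytes and is induced by interferons. Ly6c1 and Ly6c2 together make the Ly6C antigen, which marks inflammatory monocytes, plasmacytoid dendritic cells and memory CD8 T cells, and Ly6g is the neutrophil antigen Ly6G. Ly6d marks lymphoid progenitors committed to the B lineage and is kept on B cells, and Ly6e, known as TSA-1 or Sca-2, is an interferon-inducible protein found on many immune cells.

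All 6 genes lie on mouse chromosome 15 within 397 kb (GRCm38, chr15:74762056-75159126), a stretch that holds 11 genes of the wider family. In the GENCODE M21 annotation Ly6d is at chr15:74762056-74763620 on the minus strand, Ly6e at chr15:74955051-74959905 on the plus strand, and Ly6a at chr15:74994877-74998031 on the minus strand. Ly6c1 (chr15:75044018-75048830) and Ly6c2 (chr15:75108158-75111970) follow on the minus strand with 59.3 kb between them, and Ly6g is at chr15:75155240-75159126 on the plus strand. Ly6c1 and Ly6c2 are near copies: their coding sequences of 396 bases differ at 9 aligned positions (97.7% identity), and the last 500 bases of their transcripts, from which a 3′ library draws its reads, are 95.5% identical. Of the 411 windows of 90 bases in that stretch, 35 (8.52%) were the same in both genes, so a part of their reads could not be told apart, and no window of the other 4 members occurred in another gene. The last 150 coding bases of the pair are shown because all statements on which gene a cell uses rest on such differences. Capitals mark the 3 bases at which they differ.
Ly6c1, coding end: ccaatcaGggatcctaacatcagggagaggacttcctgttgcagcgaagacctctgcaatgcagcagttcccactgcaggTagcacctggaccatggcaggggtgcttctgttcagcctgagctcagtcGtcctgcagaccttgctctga
Ly6c2, coding end: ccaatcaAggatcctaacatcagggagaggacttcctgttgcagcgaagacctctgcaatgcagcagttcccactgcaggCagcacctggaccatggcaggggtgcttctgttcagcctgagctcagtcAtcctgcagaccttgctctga

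Their promoters are less alike, and are shown because the 2 genes were found in different cells. The RefSeq windows (GRCm38.p6, 250 bases before to 50 after the start, both on the minus strand) lie at chr15:75048788-75049087 for Ly6c1 and chr15:75111922-75112221 for Ly6c2 and were 62.3% identical. Capitals mark the 35 bases that stand in shared runs of at least 15.
Ly6c1, promoter: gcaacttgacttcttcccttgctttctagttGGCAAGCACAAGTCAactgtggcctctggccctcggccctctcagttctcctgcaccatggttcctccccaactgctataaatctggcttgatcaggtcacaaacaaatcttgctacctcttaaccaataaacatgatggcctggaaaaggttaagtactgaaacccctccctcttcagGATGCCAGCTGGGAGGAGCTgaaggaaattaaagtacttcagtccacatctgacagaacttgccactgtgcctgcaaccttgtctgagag
Ly6c2, promoter: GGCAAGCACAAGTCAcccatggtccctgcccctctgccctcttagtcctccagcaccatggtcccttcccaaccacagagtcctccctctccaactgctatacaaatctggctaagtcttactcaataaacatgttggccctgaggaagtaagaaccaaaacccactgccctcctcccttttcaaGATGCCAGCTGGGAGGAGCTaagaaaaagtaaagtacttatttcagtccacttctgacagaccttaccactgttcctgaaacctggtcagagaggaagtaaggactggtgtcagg
Neither the core of the interferon-stimulated response element, searched as GAAA, any 2 bases and GAAA, nor TTCNNNGAA, the gamma-activated site, was present on either strand of these windows or of those of Ly6g. The patterns share the letters GAA, so that matches may overlap, and they occurred in 3.44% and 8.30% of 32851 promoters. The windows of Ly6a, Ly6e and Ly6d were not analysed here.

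In the knock-in library 9000 cell barcodes held 25193274 UMIs, and in the wild-type library 32797052 UMIs lay in 10449 barcodes. After removal of shallow cells, cells with at least 10% mitochondrial UMIs (4.52% in the knock-in library and 6.81% in the wild-type library) and likely doublets, 8374 knock-in and 9478 wild-type cells were kept, with medians of 2017 and 2522 UMIs. Barcodes shared by both libraries numbered 27, of which 25 knock-in and 23 wild-type cells were kept. Cells were classed by marker genes that include no Ly6 gene. The classes were B-like (5532 knock-in and 6458 wild-type cells), T-like (1836 and 1941), NK-like (225 and 399), monocyte-like (170 and 176), plasma-like (152 and 36), neutrophil-like (52 and 124), pDC-like (plasmacytoid dendritic, 43 and 39) and cDC-like (conventional dendritic, 29 and 32). Each class had between 2 and 7 of its own markers among its 10 leading genes and none of another class. The gates rest on these same markers, so this describes the classes and is no check on them. Mefv itself had 75 UMIs in knock-in and 144 in wild-type cells, and a 3′ count does not read the M694I codon, so it checks nothing about the labels.

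Over all kept cells, Ly6a was the member with the largest difference among those with enough UMIs to compare. Levels are given as CPM, the UMIs of a gene per 1000000 UMIs of the cells summed, and parentheses after a level or a log2 ratio give 95% limits that cover counting error only. Ly6a was at 254 CPM in knock-in cells and 121 CPM in wild-type cells, a log2 ratio of 1.07 (1.01 to 1.13). Ly6c2 was at 121 CPM in knock-in and 92.4 CPM in wild-type cells (0.39, but 0.050 among cells under 5% mitochondrial UMIs and 0.10 with classes weighted to their mean share), and Ly6d at 1348 and 1076 CPM (0.32). Ly6e was at 657 and 721 CPM (−0.13), and Ly6c1 at 4.21 and 4.70 CPM (−0.16, −0.54 to 0.22). Ly6g was counted 29 times in knock-in and 4 times in wild-type cells.

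A gene was compared where its mean level was at least 10 CPM with at least 20 UMIs over both libraries, and was called past 1.5-fold, a size chosen in place of a test. Ly6a, Ly6e, Ly6c2 and Ly6d passed this filter over all kept cells, while Ly6c1 and Ly6g did not. Of the 4, Ly6a alone was 1.5-fold higher in the knock-in library and none was 1.5-fold lower, where 3.11% of all 7077 genes compared were higher and 4.01% lower. Sums over all cells mix the level in each class with the share of each class. The plasma-like class, which made up 1.82% of knock-in and 0.380% of wild-type cells, held 30.8% of the knock-in and 13.4% of the wild-type Ly6a UMIs. Without it the log2 ratio of Ly6a was 0.85, and with every class weighted to its mean share it was 0.64.

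**Figure D1:**
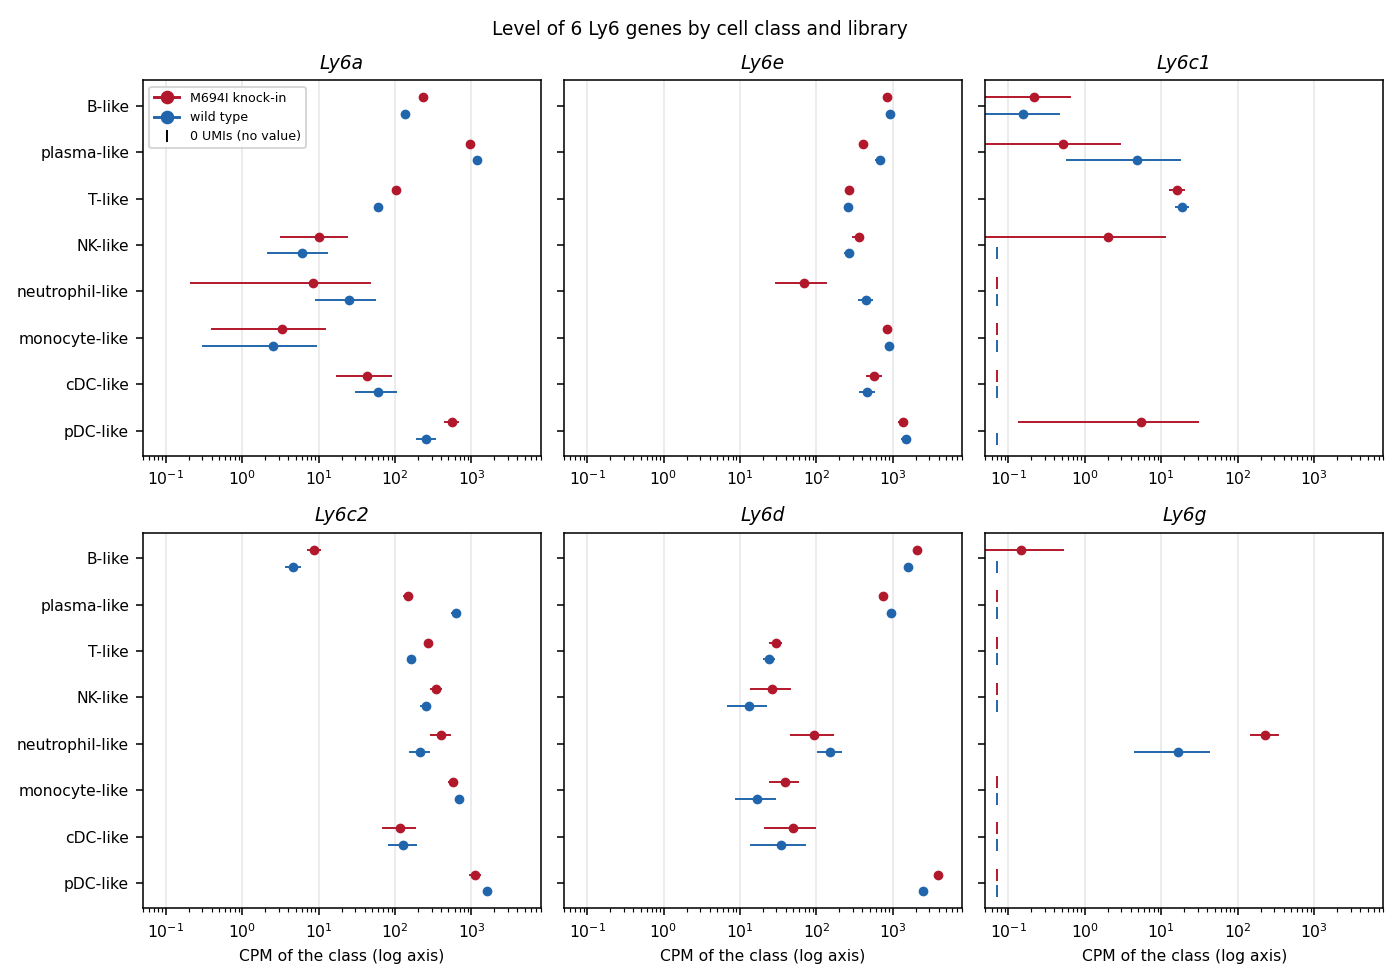
Level of each member (x axis, CPM on a log scale) in 8 cell classes (rows) of the M694I knock-in library (red, upper point) and the wild-type library (blue, lower point), with 95% Poisson limits as lines and a tick at the left edge for 0 UMIs. Each member has its own set of high classes: Ly6d stands at 2062 and 1589 CPM in B-like cells, Ly6c1 is nearly limited to T-like cells and Ly6g to neutrophil-like cells.

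Ly6a was highest in plasma-like cells, with 950 CPM (907 to 994) in the knock-in and 1188 CPM (1085 to 1298) in the wild-type library. This class, unlike the B-like and T-like classes, was lower in the knock-in library, and 1 of its 36 wild-type cells held 16.2% of its Ly6a UMIs. Ly6a was next in pDC-like cells, at 557 and 255 CPM, then in B-like cells, at 234 and 134 CPM, T-like cells, at 102 and 59.6 CPM, and cDC-like cells, at 43.1 and 59.1 CPM. In that order each class stood above the next in both libraries, though T-like and cDC-like cells of the wild-type library were nearly level. Monocyte-like cells had 2 Ly6a UMIs in each library (3.36 and 2.56 CPM), NK-like cells 5 and 6, and neutrophil-like cells 1 and 6, and the last 2 of these classes overlapped in level. At least 1 Ly6a UMI was present in 82.9% of knock-in and 80.6% of wild-type plasma-like cells, and in 0.588% and 1.14% of monocyte-like cells, which should lack the gene. Plasma-like cells were deep, with medians of 12357 and 9602 UMIs, against 3371 and 4371 UMIs in monocyte-like cells.

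Within B-like cells Ly6a was higher in the knock-in library in each of the 4 subsets with at least 100 cells. The whole B-like class had 3238 Ly6a UMIs in knock-in and 2599 in wild-type cells, a log2 ratio of 0.80 (0.73 to 0.88). Of the 3 members that passed the filter there, Ly6a alone was past 1.5-fold, among 3.12% of 6899 genes that were higher and 2.93% that were lower. Marginal zone B-like cells, which answer blood-borne antigens, had the highest of the 4 large subsets in both libraries, at 398 CPM (345 to 456) in knock-in and 228 CPM (201 to 258) in wild-type cells. Follicular B-like cells had 223 and 124 CPM, a log2 ratio of 0.85 (0.73 to 0.97). Transitional B-like cells, the newest arrivals from the marrow, had the lowest, at 133 and 78.5 CPM (0.76, 0.38 to 1.14). Activated B-like cells had 252 and 120 CPM (1.07, 0.86 to 1.29).

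Plasma cell markers were counted in the same cells, and they did not all move with these ratios. Of the 8 plasma markers of the gates, 7 were detected in B-like cells of each library, with Tnfrsf17 at 0, and their summed level was 828 CPM in knock-in and 462 CPM in wild-type cells. Over the 4 subsets the sum ran from 735 to 1370 CPM in knock-in and from 367 to 1054 CPM in wild-type cells. Without Jchain it was 623 and 425 CPM in all B-like cells. Of 1.38e+07 knock-in and 1.94e+07 wild-type UMIs of that class, Mzb1 had 6232 and 5255, Txndc5 1004 and 1079, and Derl3 115 and 48. Xbp1 had 1045 and 1487, Sdc1 109 and 161, and Prdm1 113 and 204. Against those totals Xbp1, Sdc1 and Prdm1 were level or lower in the knock-in library, and Mzb1, Txndc5 and Derl3 were higher. Jchain, which encodes the joining chain of secreted antibodies, stood at 189 and 3.65 CPM in follicular, 697 and 7.52 CPM in activated and 184 and 24.3 CPM in transitional B-like cells, but at 37.0 and 376 CPM in marginal zone B-like cells. In the marginal zone class 1 wild-type cell held 409 of 419 Jchain UMIs. In the activated class 1 knock-in cell held 817 of 1229. Without Jchain the markers summed to 889 CPM in knock-in and 677 CPM in wild-type marginal zone B-like cells. A Jchain UMI was present in 217 knock-in and 84 wild-type B-like cells, which held 284 and 68 of the Ly6a UMIs. With these cells left out, a step chosen after seeing the data, the log2 ratio of Ly6a was 0.80 in all B-like, 0.83 in follicular, 1.09 in activated, 0.80 in transitional and 0.81 in marginal zone B-like cells, the last with fewer than 100 knock-in cells.

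Among cells under 5% mitochondrial UMIs the ratio was 0.54 in transitional B-like cells, short of 1.5-fold, and 1.30 in activated B-like cells. The background was 8.39% of genes 1.5-fold higher and 16.1% lower in marginal zone, 12% and 14.2% in transitional, 3.18% and 3.75% in follicular, and 11% and 9.74% in activated B-like cells. B-1 B-like cells, the innate-like B cells, were too few for a ratio (35 and 16 cells) and had 484 and 403 CPM. Depth differed between the libraries, so each cell was also thinned to 1000 UMIs. After thinning, 16.1% of knock-in and 9.79% of wild-type B-like cells held a Ly6a UMI, against 29.5% and 23.3% before. In 12.8% of thinned knock-in and 8.27% of thinned wild-type B-like cells there was exactly 1 Ly6a UMI, and in 0.656% and 0.187% there were 3 or more. Most positive cells thus held a single UMI, and before thinning the highest cell held 0.803% and 0.654% of the class's Ly6a UMIs.

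**Figure D2:**
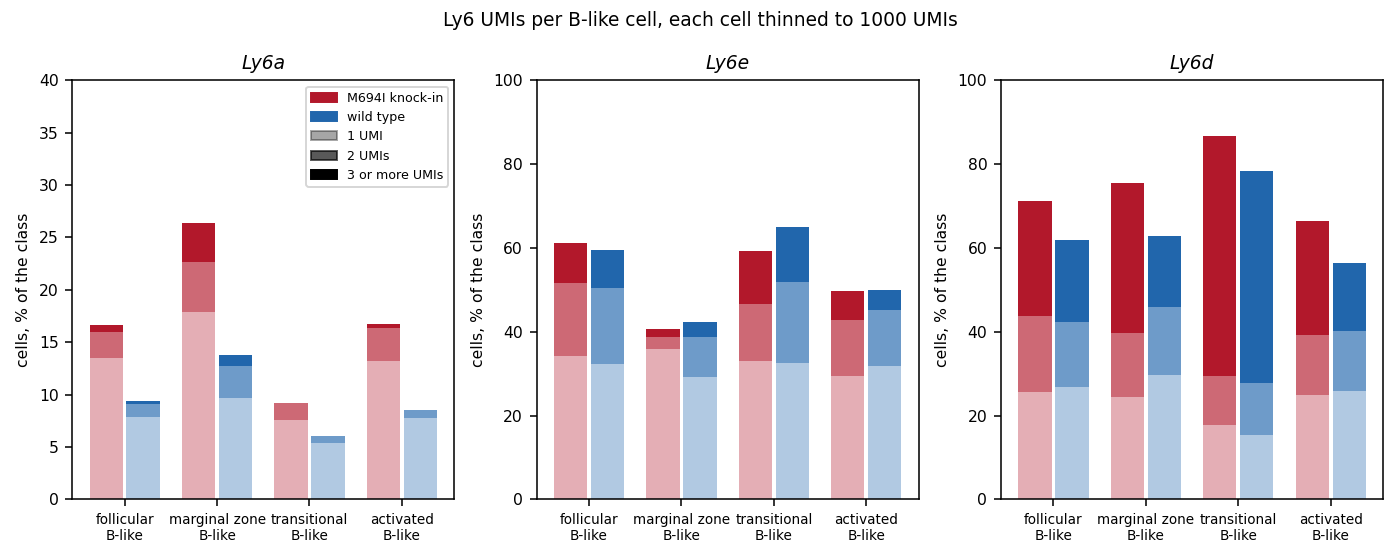
Share of cells (y axis, % of the class) with 1, 2 or 3 or more UMIs of Ly6a, Ly6e and Ly6d in 4 B-like subsets after each cell was thinned to 1000 UMIs, with the knock-in library (red) left of the wild-type library (blue). In the knock-in library Ly6a bars are taller in all 4 subsets (16.7% and 9.38% in follicular B-like cells), Ly6d bars likewise, and Ly6e bars are near level in follicular and activated B-like cells; the Ly6a axis ends at a lower value than the others.

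T-like cells had 540 Ly6a UMIs in the knock-in and 412 in the wild-type library, a log2 ratio of 0.77 (0.59 to 0.96), and 15.7% and 10.6% of them held one. That ratio ran from 0.69 to 1.22 over the alternatives tried. T-like cells with neither a Cd4 nor a Cd8 UMI held 323 knock-in and 233 wild-type Ly6a UMIs, at 135 and 63.8 CPM (1.08). In the wild-type library 12 T-like cells with both held 25 Ly6a UMIs, beside 2 UMIs in 6 such knock-in cells. The level was higher in helper cells than in cytotoxic cells. CD4 T-like cells had 243 CPM (203 to 288) in knock-in and 112 CPM (92.2 to 134) in wild-type cells, a log2 ratio of 1.12 with a lower limit of 0.75. CD8 T-like cells, the cytotoxic lineage, had 36.4 and 18.1 CPM (1.01, 0.44 to 1.59), and naive CD8 T-like cells 35.9 and 9.65 CPM (1.90, 1.01 to 2.87). A single wild-type CD8 T-like cell held 18 of that class's 39 UMIs, and the ratio in CD8 T-like cells ran from 0.83 to 1.80 over the alternatives tried, and in naive CD8 T-like cells from 1.60 to 2.52. Of the 8 plasma markers 7 were detected in CD8 and in naive CD8 T-like cells of each library, with Tnfrsf17 at 0, and they summed to 355 and 138 CPM in CD8 and to 506 and 140 CPM in naive CD8 T-like cells. Without Jchain the sums were near level, at 145 and 136 CPM in CD8 and 149 and 138 CPM in naive CD8 T-like cells. Jchain had 477 UMIs in knock-in and 3 in wild-type naive CD8 T-like cells, and 1 knock-in cell held 465 of them. With the cells that hold a Jchain UMI left out, the log2 ratio of Ly6a was 1.76 (0.82 to 2.79) in naive CD8, 0.88 (0.29 to 1.48) in CD8, 1.17 in CD4 and 0.78 in all T-like cells.

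Regulatory T-like cells, which restrain other lymphocytes, stood at 311 CPM in knock-in and 149 CPM in wild-type cells (47 and 40 cells), and 42.6% and 42.5% of them held a Ly6a UMI. Gamma-delta T-like cells had 18 and 26 UMIs (89.7 and 112 CPM), and memory or effector CD8 T-like cells 16 and 24 UMIs (26.8 and 58.2 CPM). In the memory or effector CD8 T-like cells of the wild-type library 1 cell held 75% of the UMIs. Both classes had fewer than 100 cells in a library and were given no ratio. Ly6a and Ly6c2 were the members past 1.5-fold in T-like cells, out of 5 that passed the filter, where 4.96% of genes were higher and 2.88% lower. In CD4 T-like cells Ly6a and Ly6d were the 2 of 4 members compared past 1.5-fold, where 13.7% of genes were higher and 11.5% lower. Ly6d rested on 17 UMIs in each library, its ratio was −1.04 after thinning and 0.0026 with doublets kept, and it is read as background. In CD8 T-like cells 5.84% of genes were higher and 5.83% lower, and in naive CD8 T-like cells 8.87% and 9.93%, with Ly6a alone past 1.5-fold in both.

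Ly6e was counted in the largest share of cells of the 6 members, 70.3% of knock-in and 74.5% of wild-type cells. It was highest in pDC-like cells, at 1360 CPM (1196 to 1540) in knock-in and 1488 CPM (1334 to 1655) in wild-type cells. B-like cells had 850 and 910 CPM, a log2 ratio of −0.10 (−0.13 to −0.06), and monocyte-like cells 827 and 899 CPM (−0.12, −0.29 to 0.05). The B-like and monocyte-like levels overlapped between the libraries. Plasma-like cells had 406 and 680 CPM, cDC-like cells 573 and 458 CPM, NK-like cells 356 and 271 CPM, and T-like cells 269 and 256 CPM.

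No ratio of Ly6e reached 1.5-fold in any class with 100 cells in each library, though with classes taken from clusters that of NK-like cells was 0.66, past 1.5-fold. The lowest was in transitional B-like cells, at 849 CPM in knock-in and 1073 CPM in wild-type cells (−0.34, −0.46 to −0.22), and the highest in NK-like cells (0.39, 0.11 to 0.67). A Ly6e UMI was present in 58.4% of knock-in and 58.3% of wild-type B-like cells after thinning, against 80.4% and 86.3% before. Among monocyte-like cells non-classical cells, which patrol vessels, had 1035 and 1241 CPM, and classical cells 714 and 861 CPM. Neutrophil-like cells were the exception in size, with 8 Ly6e UMIs in 52 knock-in cells (68.0 CPM) and 106 in 124 wild-type cells (441 CPM), of which 30 stood in 1 cell.

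**Figure D3:**
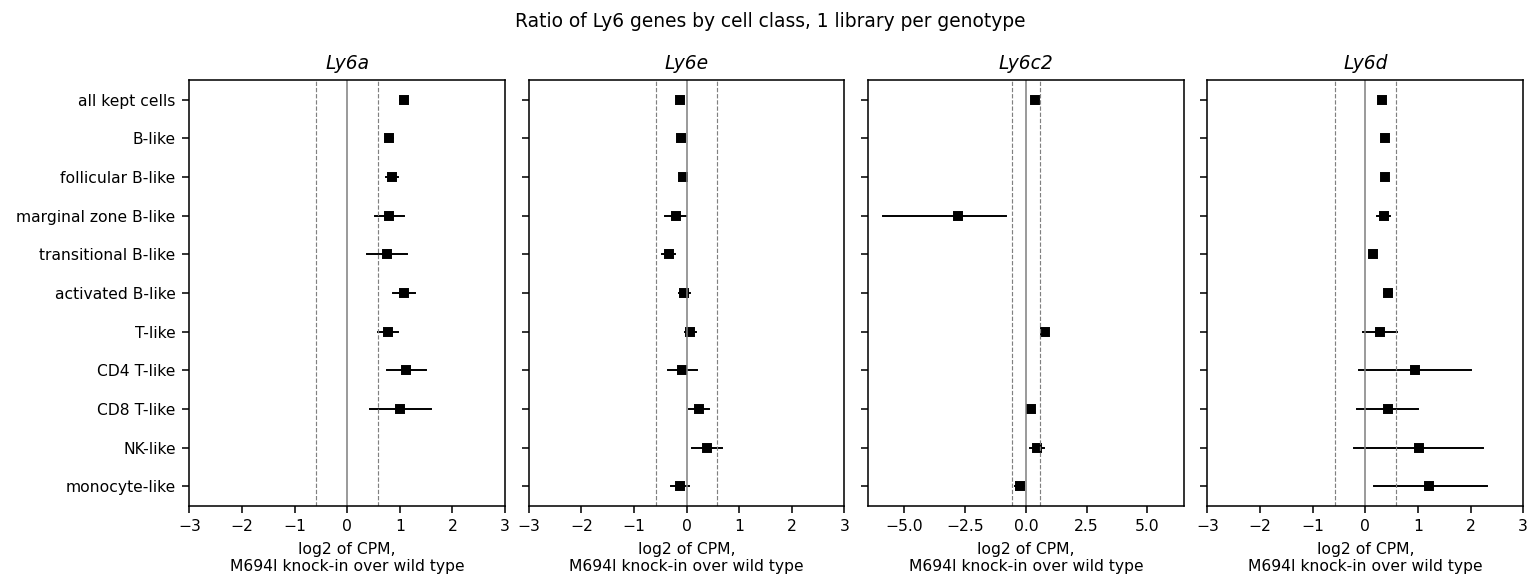
Log2 ratio of CPM, M694I knock-in over wild type (x axis), of 4 members over all kept cells and in classes with at least 100 cells in each library (rows), with 95% limits for counting error as lines, a solid line at 0 and dashed lines at 1.5-fold; values below the level filter are left out, and the Ly6c2 axis is wider. Ly6a lies right of the upper dashed line in every row drawn, Ly6e lies between the dashed lines throughout, and Ly6c2 lies right of 0 in T-like (0.77) and left of 0 in monocyte-like cells (−0.26).

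Ly6c2 was highest in pDC-like cells, at 1114 CPM (967 to 1278) in knock-in and 1620 CPM (1459 to 1794) in wild-type cells. Monocyte-like cells came next, at 574 and 689 CPM, a log2 ratio of −0.26 (−0.46 to −0.07). Classical monocyte-like cells, the inflammatory type sorted as Ly6C-high, had 806 CPM (716 to 905) in knock-in and 975 CPM (887 to 1069) in wild-type cells, and 77.5% and 81.8% of them held a Ly6c2 UMI. In non-classical monocyte-like cells the level was 175 and 315 CPM, and 16.9% and 16.4% of cells were positive. A single wild-type cell held 33 of the 65 Ly6c2 UMIs in the non-classical class. The order of classical above non-classical cells was thus the same in both libraries.

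Among T-like cells Ly6c2 was high in CD8 and in gamma-delta cells. Gamma-delta T-like cells had 83 UMIs in knock-in and 68 in wild-type cells (413 and 293 CPM), and 39.1% and 29.6% of them were positive. CD8 T-like cells had 392 CPM (367 to 418) in knock-in and 342 CPM (318 to 368) in wild-type cells, a log2 ratio of 0.20 (0.05 to 0.34). Memory or effector CD8 T-like cells had 634 and 601 CPM, with 70.7% of cells positive in each library, and naive CD8 T-like cells had 302 and 278 CPM (0.12, −0.09 to 0.32). After thinning, Ly6c2 was found in 41.8% of knock-in and 36.4% of wild-type CD8 T-like cells with a UMI of Ccl5, a chemokine of memory and effector cells, and in 65 of 438 knock-in and 38 of 362 wild-type cells without. Over all T-like cells the log2 ratio was 0.77 (0.65 to 0.88), larger than in the CD8 T-like cells. CD8 T-like cells were 642 of the 1836 knock-in and 506 of the 1941 wild-type T-like cells, and T-like cells with neither a Cd4 nor a Cd8 UMI had 219 and 101 CPM of Ly6c2, a log2 ratio of 1.11.

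NK-like cells had 348 CPM of Ly6c2 in knock-in and 251 CPM in wild-type cells (0.47, 0.18 to 0.76). Of the 3 members compared in NK-like cells Ly6d alone was past 1.5-fold, on 13 UMIs in each library, where 8.24% of genes were higher and 16.4% lower. Under the stricter gate the Ly6d ratio was −0.93, and it is read as background. Plasma-like cells had 147 and 632 CPM, with 28.2% of the wild-type UMIs in 1 cell, and 40.8% and 50% of cells were positive. B-like cells were near background, with a Ly6c2 UMI in 0.777% of knock-in and 0.743% of wild-type cells. In the marginal zone B-like class 30 wild-type UMIs came from 2 cells, beside 2 knock-in UMIs, and this ratio of −2.79 became 2.10 when classes were taken from clusters, a change of direction.

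Ly6c1 was counted almost only in T-like cells, which held 86 of its 100 knock-in and 129 of its 141 wild-type UMIs (16.2 and 18.7 CPM, −0.20, −0.61 to 0.20). T-like cells with neither a Cd4 nor a Cd8 UMI held 63 of these 86 knock-in and 99 of these 129 wild-type UMIs (26.3 and 27.1 CPM), beside 524 and 369 UMIs of Ly6c2. Between cells with Cd4 and cells with Cd8, the gene with more UMIs differed. CD4 T-like cells had 15 Ly6c1 and 7 Ly6c2 UMIs in the knock-in library and 29 Ly6c1 and 1 Ly6c2 UMI in the wild-type library. Ly6c1 therefore made up 68.2% (45.1 to 86.1) of the pair's UMIs in knock-in and 96.7% (82.8 to 99.9) in wild-type CD4 T-like cells. In naive CD4 T-like cells it was 93.8% and 100%. CD8 T-like cells had 8 Ly6c1 beside 915 Ly6c2 UMIs in the knock-in and 1 beside 736 in the wild-type library, so that Ly6c1 was 0.867% and 0.136% of the pair.

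Cells with both genes were rare: 7 knock-in and 2 wild-type cells, beside 70 and 109 with Ly6c1 alone and 803 and 638 with Ly6c2 alone. Monocyte-like cells had no Ly6c1 UMI in either library (limits of 3 UMIs per library would allow levels of up to 5.03 and 3.84 CPM), while they had 342 and 539 Ly6c2 UMIs. Regulatory and memory or effector CD4 T-like cells had no Ly6c1 UMI. A lone knock-in cell with endothelial markers held 6 Ly6c1 and no Ly6c2 UMIs. At 28.0 CPM in knock-in and 28.2 CPM in wild-type cells, the level of Ly6c1 in CD4 T-like cells differed by far less than its counting error (−0.0070, −1.01 to 0.94). All 15 knock-in and 28 of the 29 wild-type UMIs lay in naive CD4 T-like cells. These were 73 of the 180 knock-in and 165 of the 255 wild-type CD4 T-like cells, so the class level also depends on that share. How reads from the windows shared by Ly6c1 and Ly6c2 were divided was not tested.

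**Figure D4:**
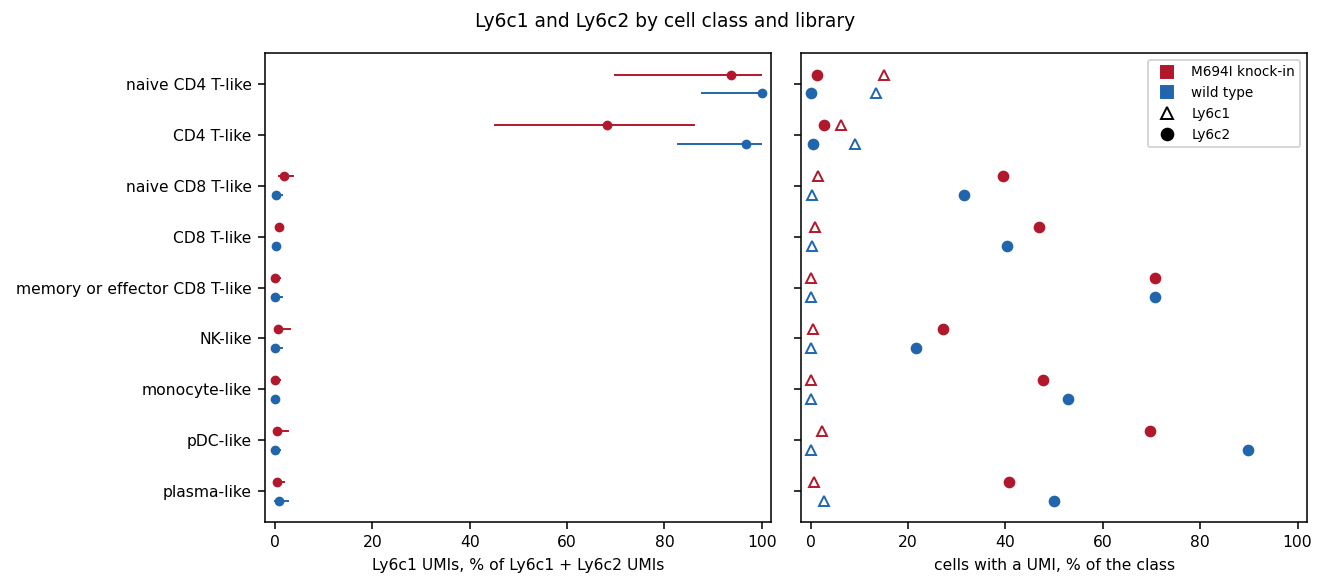
Left, Ly6c1 as a share of all Ly6c1 and Ly6c2 UMIs (x axis, %) by cell class with exact 95% limits; right, the share of cells with a UMI (x axis, %) for Ly6c1 (open triangles) and Ly6c2 (filled circles), knock-in red and above wild type blue. Ly6c1 holds 93.8% and 100% of the pair's UMIs in naive CD4 T-like cells and 1.95% and 0.247% in naive CD8 T-like cells.

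Ly6d was highest in pDC-like cells and the B lineage. In pDC-like cells it was at 3867 CPM (3587 to 4163) in knock-in and 2498 CPM (2297 to 2712) in wild-type cells, on 43 and 39 cells. B-like cells had 2062 and 1589 CPM, a log2 ratio of 0.38 (0.35 to 0.40), and plasma-like cells 737 and 949 CPM. Transitional B-like cells were the highest B-like subset, at 3493 CPM (3384 to 3605) in knock-in and 3155 CPM (3058 to 3254) in wild-type cells (0.15, 0.08 to 0.21). Follicular B-like cells had 1854 and 1435 CPM (0.37), marginal zone B-like cells 1835 and 1442 CPM (0.35), and activated B-like cells 1612 and 1197 CPM (0.43).

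All 4 ratios pointed to the knock-in library and none reached 1.5-fold. Cd79a, a B cell marker of the gates, was also higher there, with a log2 ratio of 0.27 in all B-like cells. By subset Cd79a was at 0.25 in follicular, 0.55 in marginal zone, 0.15 in transitional and 0.13 in activated B-like cells. After thinning, 72.9% of knock-in and 63.6% of wild-type B-like cells held a Ly6d UMI, and 31.5% and 23.2% held 3 or more. B-like cells with a UMI of Cd93, a receptor kept by immature B cells, held Ly6d in 90.6% of knock-in and 78.2% of wild-type cells after thinning, against 72.7% and 63.4% of B-like cells without one. T-like cells, which should lack Ly6d, held a UMI in 55 of 1836 knock-in and 77 of 1941 wild-type cells (29.3 and 24.0 CPM), with medians of 2495 and 3056 UMIs against 1832 and 2354 in B-like cells. Levels of that size in T-like, NK-like and monocyte-like cells are read as background. Neutrophil-like cells, shallow at medians of 958.5 and 1089.5 UMIs, had more Ly6d, at 93.5 CPM in knock-in and 150 CPM in wild-type cells. Whether this too is background was not tested. In monocyte-like cells 23 knock-in and 13 wild-type UMIs gave a log2 ratio of 1.22, of 3 members compared the only one past 1.5-fold (10.7% of genes higher, 14% lower), but 1 knock-in cell held 16 of the 23 and without the highest cells the ratio was −0.13.

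Ly6g was counted in neutrophil-like cells, with 27 UMIs in 52 knock-in cells (229 CPM, 151 to 334) and 4 in 124 wild-type cells (16.6 CPM, 4.53 to 42.6), beside 2 UMIs in 1 knock-in B-like cell. A Ly6g UMI was present in 21.2% of knock-in and 2.42% of wild-type neutrophil-like cells, and in no T-like, NK-like or monocyte-like cell. Camp, which encodes a granule peptide made while neutrophils mature in the marrow, was counted in 13 of the 52 knock-in cells (25%) and in 2 of the 124 wild-type cells (1.61%). Cxcr2, the chemokine receptor of mature neutrophils and a marker of the gate, was counted in 6 of the 52 knock-in and 25 of the 124 wild-type cells. Both genes were chosen after the values of Ly6g had been seen. Of the 27 knock-in Ly6g UMIs, 26 lay in the 13 cells with Camp, and the 39 cells without it held 1 (25.3 CPM), while the 122 wild-type cells without Camp held 2 (9.06 CPM).

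Other members split along the same cells. Cells with Camp held 45 of 47 knock-in and 30 of 51 wild-type Ly6c2 UMIs of the neutrophil-like class, and none of its 8 knock-in and 2 of its 106 wild-type Ly6e UMIs. Cells with Camp were also deeper, with medians of 4578 and 9834 UMIs, against 784 and 1081 UMIs in those without. With the neutrophil-like cells that hold Camp left out, 3 knock-in and 2 wild-type Ly6g UMIs remained over all kept cells, too few to read a ratio from, against a log2 ratio of 3.20 (1.69 to 5.16) with them.

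**Figure D5:**
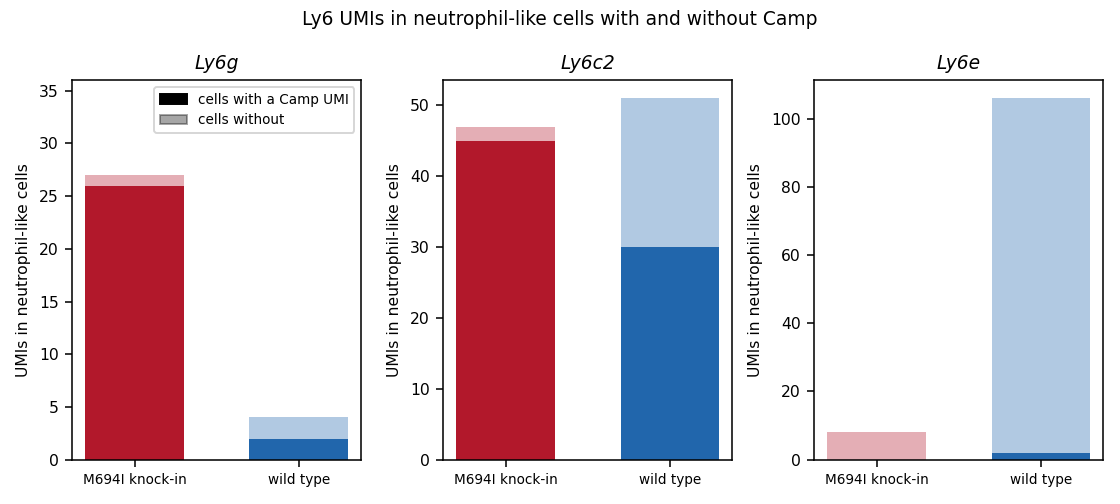
UMIs of Ly6g, Ly6c2 and Ly6e (y axis, own scale per panel) in neutrophil-like cells of the knock-in library (red, 52 cells) and the wild-type library (blue, 124 cells), split into cells with a Camp UMI (dark) and without (pale). Knock-in Ly6g (26 of 27) and Ly6c2 (45 of 47) lie in cells with Camp, and nearly all Ly6e UMIs (104 of 106 in wild type) lie in cells without.

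Cells that met no gate, 292 in the knock-in and 244 in the wild-type library, had 298 and 56.8 CPM of Ly6a (2.39, 1.93 to 2.88) and 1219 and 370 CPM of Ly6d (1.72, 1.53 to 1.91). There 13.9% of genes were 1.5-fold higher and 16.5% lower, and Ly6a, Ly6c2 and Ly6d were the 3 of 4 members compared that were higher. Of the 8 plasma markers 7 were detected in these cells of each library, with Tnfrsf17 at 0, and they summed to 4580 CPM in knock-in and 343 CPM in wild-type cells. Jchain was at 3083 and 8.83 CPM. The 33 knock-in cells with a Jchain UMI held 182 of the 268 Ly6a UMIs, and with such cells left out Ly6a was at 134 and 58.1 CPM (1.21, 0.67 to 1.76). A single knock-in cell held 172 of the 1095 Ly6d UMIs.

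The wider Ly6 and uPAR family list, which shares the fold, named 45 genes, of which 44 were in the files, 24 had a UMI and 18 had at least 20 UMIs. Of the 7 that passed the filter over all kept cells, Ly6a and Ly6k were 1.5-fold higher (1 gene after thinning) and none was lower. Of all genes compared 3.11% were higher and 4.01% lower. The median log2 ratio of the 7 was 0.32, which is the value of Ly6d, beside −0.077 over all genes compared. Since the 7 include the members Ly6a, Ly6c2, Ly6d and Ly6e, that median describes mostly the members themselves. Ly6k, a neighbour of Ly6d at chr15:74796874-74799986, had 389 UMIs in knock-in and 157 in wild-type cells (16.4 and 5.23 CPM, 1.65, 1.38 to 1.92). Below the filter in single classes, Ly6k was in B-like cells at 15.2 and 4.65 CPM (1.71, 1.35 to 2.08) and in T-like cells at 8.49 and 2.17 CPM (1.97, 1.10 to 2.92). In activated B-like cells, where Ly6k passed the filter, it was at 28.3 and 4.89 CPM (2.54, 1.63 to 3.54). Plaur, the urokinase receptor, was at 155 and 143 CPM (0.12), and Lynx1, a modulator of nicotinic acetylcholine receptors, at 20.1 and 27.0 CPM (−0.42, −0.59 to −0.26).

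Below the filter over all kept cells, Cd177, a neutrophil antigen, had 101 UMIs in knock-in and 69 in wild-type cells. Cd59a, which shields cells from complement, had 48 and 31, and Ly6i, a close relative of Ly6c2, 34 and 33. Slurp2 had 4 and 18 UMIs, Pinlyp 22 and 8, Lypd6b 22 and 16, Ly6m 15 and 27, Ly6g5b 12 and 20, and Cd59b 8 and 12. No direction is read from these sums. In monocyte-like cells Cd177 and Ly6i did pass the filter. Cd177 had 39 knock-in and 54 wild-type UMIs there (65.4 and 69.1 CPM, −0.077, −0.71 to 0.54). Ly6i had 19 and 16 UMIs (31.9 and 20.5 CPM, 0.64, −0.40 to 1.70), where 10.7% of genes were 1.5-fold higher. The remaining 6 of the 18 genes are the members themselves.

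The series' title speaks of interferon responses, so lists of interferon-induced genes were set beside the members. Neither list holds a Ly6 gene. Of 33 type I interferon genes in the files 17 passed the filter over all kept cells, with 3 higher, none lower and a median log2 ratio of 0.14, where 3.11% of all genes compared were higher and 4.01% lower. Over all kept cells the 3 with the largest difference were Isg20, an RNA exonuclease (26.9 CPM in knock-in and 11.9 CPM in wild-type cells, 1.17), Phf11b (30.6 and 18.7 CPM, 0.71) and Zbp1, a nucleic acid sensor (31.2 and 20.1 CPM, 0.63). In B-like cells their ratios were 0.45, 0.81 and 0.59, with Isg20 at 13.2 and 9.66 CPM. Of 30 interferon gamma genes 21 passed, with 2 higher, 1 lower and a median of 0.073. Psmb8 and Psmb9, subunits of the immunoproteasome, were at 384 and 212 CPM (0.86) and at 170 and 101 CPM (0.76), and Ciita, which switches on MHC class II transcription, at 34.9 and 56.6 CPM (−0.70).

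In B-like cells, where Ly6a had its ratio of 0.80, the type I list had 18 genes compared, 2 higher, none lower and a median of 0.21, and the interferon gamma list 17 compared, 3 higher, 1 lower and a median of 0.087, where 3.12% of all genes compared were higher and 2.93% lower. Of 19 type I genes compared in CD4 T-like cells 7 were higher and none lower (median 0.49), where 13.7% of all genes compared were higher and 11.5% lower. Of 21 compared in CD8 T-like cells 6 were higher and 2 were lower (median 0.33), where 5.84% were higher and 5.83% lower. Over all genes compared the median was −0.036 in B-like cells, and it was 0.070 for CD4 and 0.0057 for CD8 T-like cells. Other classes differed. In transitional B-like cells (Ly6a 0.76) 2 of 13 type I genes were higher and 1 lower (median −0.11), beside 12% and 14.2% of all genes. Follicular B-like cells (Ly6a 0.85) had 1 of 17 higher and none lower (median 0.14), beside 3.18% and 3.75%. In cells that met no gate (Ly6a 2.39) 1 of 18 was higher and 3 were lower (median −0.23), beside 13.9% and 16.5%. Psmb8 was at 361 and 198 CPM in B-like cells (0.87) and at 404 and 202 CPM in CD8 T-like cells (1.00). Both lists were drawn up with earlier values of these libraries known.

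Genes most like each member were sought by the Pearson correlation of log2(CPM + 1) over the 8 classes named above, both libraries summed, and the 3 highest are given as a description. Ly6g went with the granule genes Ltf (r = 0.99), Ngp (0.96) and Camp (0.96). Ly6d went with the B cell genes Fcrla (0.97) and Blnk (0.96) and with Cacna1e (0.96). Ly6c1 went with Morf4l2 (0.90), Themis (0.90) and Nsg2 (0.90), of which Themis acts in T cell development. Ly6e went with Slc15a4 (0.94), a lysosomal transporter needed in plasmacytoid dendritic cells, Atp13a2 (0.93) and Scpep1 (0.91). Ly6a went with Tubb2b (0.92), A430035B10Rik (0.91) and Stoml1 (0.91), and Ly6c2 with Itm2b (0.87), Spn (0.84) and Racgap1 (0.82). All points share the same 2 libraries and cells.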

How the data were processed

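Droplet 3′ single-cell RNA libraries of splenocytes were compared, 1 from an M694I knock-in and 1 from a wild-type mouse. Each deposited matrix gives whole UMI counts by gene and barcode and was not normalized. Its header, per the file headers, carries Cell Ranger version 6.1.2, whereas version 7.1.0 of that program, with Seurat 5.0.3 and build mm10, stands in the submitters' processing notes. For the gene annotation and the choice of cell barcodes, the labels and headers name no method. Of the 32285 feature IDs, 32235 (99.8%) matched the GENCODE M21 annotation of GRCm38.

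Cells with under 500 UMIs or 200 genes, or with at least 10% mitochondrial UMIs, were removed. Scrublet's automatic thresholds (scanpy 1.11.5) marked 1 of the knock-in and 157 of the wild-type cells, so 1 score threshold of 0.35, set after seeing this, was used for both and marked 209 (2.44%) and 255 (2.62%). A cell took the lineage with the most distinct markers detected, at least 2 and more than of any other of 14 lineages. Subsets were gated by the same rule, except the CD4, CD8 and gamma-delta gates, which use the UMIs of single receptor genes. Over both libraries, cells that met the minimum of 2 markers exactly numbered 595 of 11990 in the B-like and 127 of 3777 in the T-like class. UMIs were summed per class. Ratios carry exact conditional binomial limits, levels exact Poisson limits and shares Clopper-Pearson limits, all at 95% and for counting error only. Ratios were formed in classes with at least 100 cells in each library. The code was tested on simulated counts. Named beside the 6 members are family genes with at least 20 UMIs, the 3 genes of each interferon list with the largest absolute ratio, and the 3 genes most like each member. Members, lists and gates were chosen with earlier results of these data known. Alternatives included TMM factors (edgeR 4.0.16), thinning to 1000 UMIs, other filters and gates, and Leiden clusters (leidenalg 0.10.2) made without Ly6 genes.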

Additional observations from a re-analysis of the deposited data

Results flagged for a closer look

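Ratios of 2 members pointed in opposite directions in different cell classes, each with 95% counting limits clear of 0, which is why they are listed. Ly6c2 had a log2 ratio, knock-in over wild type, of 0.77 in T-like cells and 0.47 in NK-like cells but −0.26 in monocyte-like cells. Over the alternatives tried the monocyte-like value stayed between −0.43 and −0.24 and the T-like value between 0.69 and 0.95. The T-like value sums unlike subsets, with 0.20 in CD8 T-like cells and 1.11 in those with neither a Cd4 nor a Cd8 UMI. CD8 T-like cells were 642 of the 1836 knock-in and 506 of the 1941 wild-type T-like cells. How much of the T-like value comes from this difference in share was not tested. Ly6e had a log2 ratio of 0.39 in NK-like cells and −0.10 in B-like cells, with ranges of 0.20 to 0.66 and of −0.13 to −0.01. With 1 library per genotype these differences between classes were not tested.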

How the results depend on the processing

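No paired analysis was possible because each genotype has 1 library and the labels give no replicate numbers, and for the same reason no replicate could be left out. Values are log2 ratios, knock-in over wild type, over all kept cells unless a class is named. Under 5% mitochondrial UMIs Ly6a was 1.18, Ly6e −0.071, Ly6c2 0.050 and Ly6d 0.51, and 1 type I interferon gene was lower. With cells thinned to 1000 UMIs Ly6a was 0.91, Ly6e −0.030, Ly6c2 0.49, Ly6d 0.38 and Ly6g 1.54, with 1 family gene higher and 4 interferon gamma genes higher and 0 lower. TMM factors gave Ly6e −0.075, Ly6d 0.38 and 4 interferon gamma genes higher. With cells weighted equally Ly6a was 0.92, Ly6e −0.047, Ly6c2 0.49 and Ly6d 0.38, with 4 interferon gamma genes higher and 0 lower. With classes weighted to their mean share Ly6a was 0.64, Ly6e −0.10, Ly6c2 0.10 and Ly6d 0.38. Added after seeing the data, leaving out plasma-like cells gave Ly6a 0.85, Ly6e −0.086, Ly6c2 0.48 and Ly6d 0.38, leaving out cells with Jchain gave Ly6a 0.80, Ly6e −0.068, Ly6c2 0.50 and Ly6d 0.40, leaving out neutrophil-like cells with Camp gave Ly6g 0.93 on 3 and 2 UMIs, and automatic doublet thresholds moved none of the members over all kept cells past its counting limits. Without the level filter 8 family genes were higher and 2 lower, and 5 type I interferon genes were higher and 3 lower. Within classes 585 of 620 ratios kept their sign. Those counted as reversed were Ly6d in NK-like cells (−0.93) and monocyte-like cells (−0.59) under the stricter gate, in monocyte-like cells without the highest cell (−0.13) and by clusters (−0.13), and in CD4 T-like cells after thinning (−1.04), Ly6c2 in marginal zone B-like cells by clusters (2.10), and Ly6c1 in follicular B-like cells under the stricter gate (−0.45) and without cells with Jchain (−0.41). The cause was not tested. TMM moved the median of CD4 T-like genes by −0.12. Low counts limit Ly6c1 and Ly6g outside their main classes.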
